A study of Rattus norvegicus with 10 samples.

Results

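The channels described here are the TRP, purinergic and acid-sensing receptors of pain-sensing neurons: Trpv1, Trpv2, Trpa1, Trpm8, P2rx2, P2rx3, Asic1, Asic2 and Asic3. They were chosen by name, with earlier results of these data known. Every probe set whose single gene symbol in the platform annotation is one of these 9 was used. This gave 17 probe sets of 8 genes, of 31042 probe sets and 14217 single-symbol genes on the array. Trpa1, the receptor of mustard oil and other irritants, was not analysed here. One further probe set, shared by Trpv1 and Trpv4, was kept apart because it cannot be assigned to either gene.

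RNA came from axons of rat dorsal root ganglion neurons and was hybridised to 10 Affymetrix arrays. There were 5 arrays from adult rats and 5 from rat embryos of day 16. In both groups ganglion explants had grown for 4 days in a chamber with compartments, and axons of over 1 cm were taken from its outer compartment. The labels give no genotype, strain or drug treatment, and the age of the adult rats is not stated either. Each label speaks of 1 animal or embryo and of a biological replicate, without saying how many explants went into it.

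Primary sensory neurons detect noxious stimuli with ion channels at their peripheral endings. Transient receptor potential (TRP) channels open to heat, cold or irritants, P2X channels to extracellular ATP, and acid-sensing channels (ASICs) to protons. The channel proteins are carried down the axon, and part of the messenger RNA of a neuron is carried there too, where it can be translated locally. The series set out to compare the axonal messenger RNAs of embryonic and adult neurons, with axon growth and pain as its themes.

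Most of the channel probe sets could not be told from background in either stage. An array's background level was set so that 95% of 105 probe sets for genes known from tissues other than nerve fell below it. It lay between 2.83 and 4.07 on the adult arrays and between 3.15 and 4.11 on the embryonic arrays, in RMA values on a log2 scale. Of the 17 probe sets, 10 were above it on 0 of 10 arrays, against 31.9% of all probe sets. These 10 ranged from 1.59 to 3.40. P2rx2, Asic2 and Asic3 had no probe set above background on any array. Trpv2 and P2rx3 were each above it on 9 of 10 arrays, through 1 probe set each. On all 5 adult arrays 1 of the 17 was above background (Trpv2), against 14.2% of all probe sets. On all 5 embryonic arrays it was again 1 of the 17 (P2rx3), against 18.0% of all probe sets.

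No channel differed between the stages by limma's test. With Benjamini-Hochberg adjustment over all 31042 probe sets, 0 of 17 passed an adjusted p of 0.05, against 0.831% of all probe sets, and 1 of 17 had an unadjusted p under 0.05, against 9.84% of all. That probe set was Trpv2. A two-sided exact permutation test over the arrays put 2 of 17 under 0.05 before any adjustment, Trpv2 and a probe set of Asic1. The stages overlapped for every one of the 17, and only 2.58% of all probe sets did not overlap. With shares as low as 0.831% and 2.58%, finding 0 of 17 does not set the channels apart from other probe sets. The adult mean was higher for 6 probe sets and lower for 11, with a median difference of -0.14 against 0.00149 over all probe sets. On simulated data the fit recovered 54% of probe sets changed by 2 on the log2 scale and 12% of those changed by 1. The changed probe sets were drawn at random from all 31042 and given independent noise, so these shares need not hold for the channels.

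**Figure D1:**
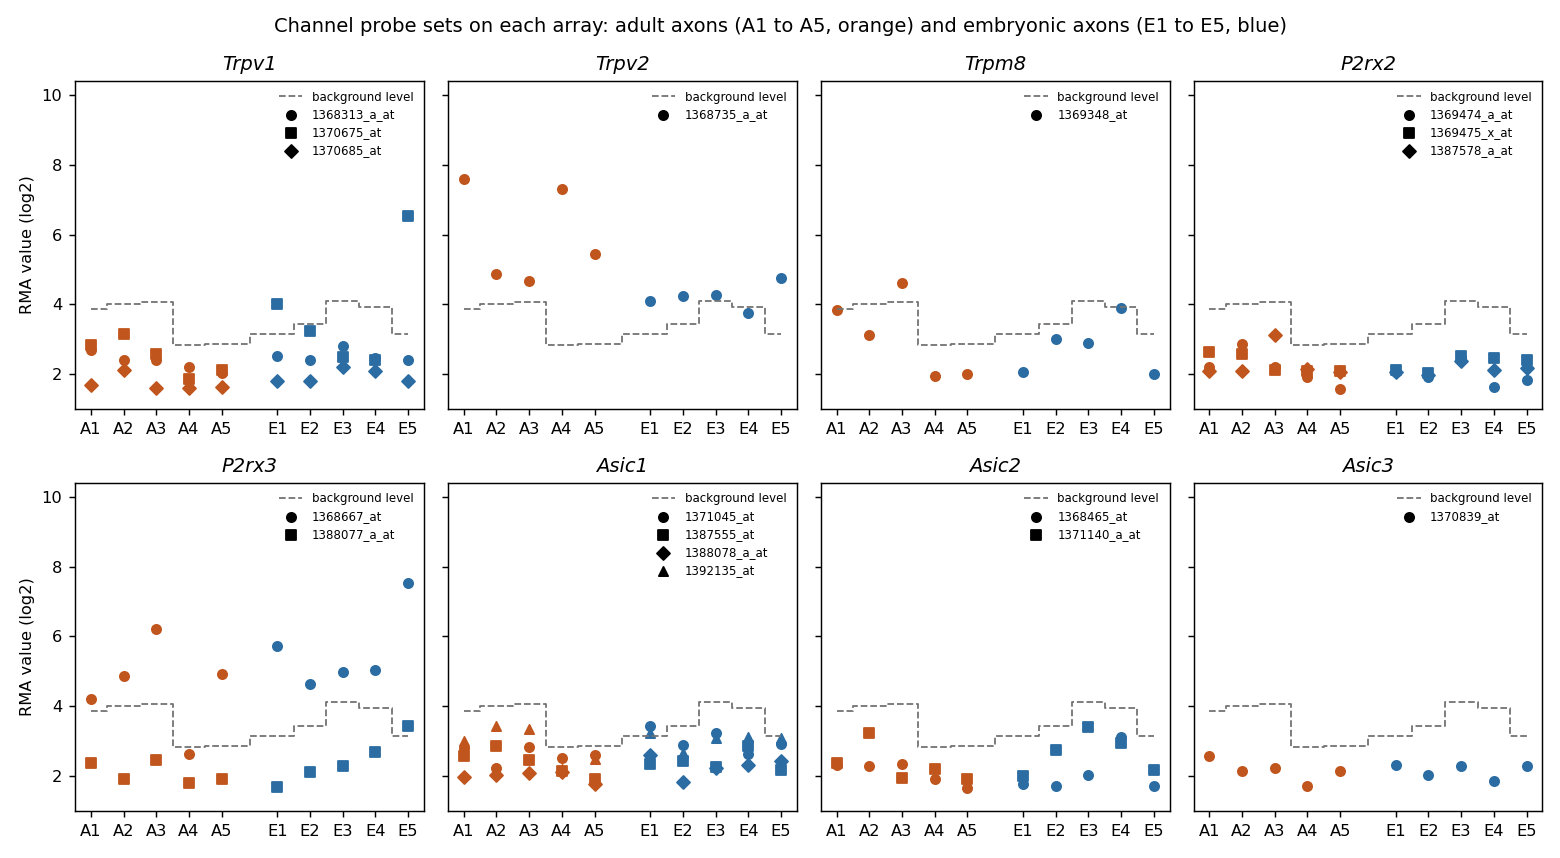
RMA values (log2) of the 17 probe sets of 8 channel genes on each of 5 adult arrays (A1 to A5, orange) and 5 embryonic arrays (E1 to E5, blue), with 1 symbol shape per probe set and the background level of each array as a dashed step line. Trpv2 and 1 probe set of P2rx3 lie above the line on 9 of 10 arrays, Trpv1 on embryonic arrays 1 and 5, and P2rx2, Asic2 and Asic3 lie below it throughout.

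Some facts of the arrays bear on all these values. The values on 4 arrays, adult replicates 4 and 5 and embryonic replicates 1 and 5, had a wide spread (SD 1.95 to 2.07), and the other 6 a narrow one (1.49 to 1.70). The wide arrays also had the lowest background levels and 45.2% to 51.1% of all probe sets above them, against 24.9% to 40.2% on the narrow arrays. Poly-A control transcripts, added to RNA before labelling, averaged 7.64 to 11.97 on adult and 2.11 to 2.73 on embryonic arrays, and effects of labelling cannot be told apart from those of stage. Of 34 probe sets of sensory neuron markers, 12 were above background on all adult and 16 on all embryonic arrays. Among them were the peripheral neuron filament Prph and the nociceptor sodium channel Scn10a in both stages. With a list of Schwann cell markers 4 and 5 of 14 probe sets were above background on all adult and all embryonic arrays, and with endothelial markers 0 of 10 in either stage. Limma called 0 probe sets of the Schwann cell, satellite glia, fibroblast, endothelial and keratinocyte lists, of which 2 of 14, 1 of 13, 3 of 13, 2 of 10 and 0 of 5 had an unadjusted p under 0.05. The 2 of the Schwann cell list were higher in adult samples, Pmp22 (1370247_a_at) by 2.58 and Mbp (1368810_a_at) by 2.16. Their limma adjusted p was 0.066 and 0.25. The satellite glia probe set was higher in adult samples too. Of the fibroblast ones 2 were higher and 1 lower, and of the endothelial ones 1 was higher and 1 lower. In such a bulk sample, fewer axons or cells of a type and less RNA in each cannot be told apart.

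Trpv1 is the receptor of capsaicin and noxious heat, and was measured by 3 probe sets. Probe set 1370675_at was at 2.83, 3.16, 2.58, 1.87 and 2.12 on adult replicates 1 to 5, all below background. On embryonic replicates 1 to 5 it was at 4.01, 3.23, 2.51, 2.41 and 6.54. Embryonic replicates 1 and 5 stood above background, by 0.85 and 3.39 on the log2 scale, and the other 3 lay below it, as did all adult arrays. The stage means were 2.51 ± 0.52 in adult and 3.74 ± 1.69 in embryonic samples (SD, n = 5 each). The difference was -1.23 with a 95% confidence interval from -2.79 to 0.33, and limma's adjusted p was 0.66. Taken against the background level of the adult arrays, the measured mean was at least 1.16-fold lower in adult samples. This bound compares means only, leaves the spread of the arrays out of account and rests on embryonic replicate 5. Without that array the embryonic mean was 3.04, below the adult background mean of 3.53, and no bound was left.

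The other Trpv1 probe sets showed no such signal. Probe set 1368313_a_at ranged from 2.03 to 2.70 on adult and from 2.40 to 2.80 on embryonic arrays, and 1370685_at from 1.60 to 2.11 on adult and from 1.80 to 2.20 on embryonic arrays. All 20 of these values were below background, on embryonic replicates 1 and 5 too. The probe sets of Trpv1 therefore disagree on those 2 arrays. Their differences were -0.17 and -0.21, with 95% confidence intervals from -0.64 to 0.30 and from -0.68 to 0.26. The probe set shared with Trpv4 was above background on 0 of 10 arrays, at 2.20 to 3.60 on adult and 1.97 to 3.15 on embryonic arrays.

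The Trpv1 signal was found where some other neuronal genes were also bright. Scn9a, a sodium channel of pain-sensing neurons, was at 5.81 and 7.07 on embryonic replicates 1 and 5, and between 2.37 and 3.40 on the other embryonic arrays. Slc17a6, a vesicular glutamate transporter, was at 8.32 and 8.92 on these 2 arrays and between 3.38 and 3.59 on the others of the stage. Both genes were chosen from the marker list after their values were seen, and other markers went differently. Scn10a was highest on embryonic replicate 3, at 8.27, against 7.34 and 7.16 on replicates 1 and 5. Runx1 (1368914_at) was highest of the stage on embryonic replicate 4, at 8.13. The mean over all 34 sensory neuron probe sets was 6.35 and 6.32 on embryonic replicates 1 and 5, and between 4.85 and 5.74 on the other 3. Both arrays are of wide spread, and the part of that spread in the Trpv1 values was not tested. Without embryonic replicate 5 the difference of 1370675_at was -0.53 (adjusted p = 0.86), and among the 6 narrow arrays it was 0.14.

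Trpv2, a relative of Trpv1 known from large sensory neurons and from macrophages, had the largest difference of the 17 probe sets. It was at 7.59, 4.87, 4.68, 7.31 and 5.43 on adult replicates 1 to 5. On embryonic replicates 1 to 5 it was at 4.10, 4.25, 4.26, 3.75 and 4.76. Adult replicates 1 and 4 were far above the rest, and adult replicate 3 lay just below embryonic replicate 5, so the stages overlapped by that 1 pair. Relative to background, the embryonic values ran from 0.19 below it to 1.61 above it, and the adult values from 0.62 to 4.49 above it. Adult replicates 2 and 3, at 0.87 and 0.62 above background, lay within the embryonic range.

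Trpv2 averaged 5.98 ± 1.38 in adult and 4.22 ± 0.37 in embryonic samples (SD, n = 5 each). The difference was 1.75 ± 0.58 on the log2 scale (SE), with a 95% confidence interval from 0.48 to 3.03. Limma's p was 0.012 before and 0.27 after adjustment, and the exact permutation p was 0.016. Adult replicates 1 and 4 carried much of it: without replicate 1 the difference was 1.35, and without replicate 4 it was 1.42. Within the 4 wide arrays the difference was 1.94, and within the 6 narrow arrays it was 1.63. Adult replicate 4 is among the wide arrays and adult replicate 1 among the narrow ones. The shared direction therefore does not set the difference apart from those arrays.

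Macrophage markers moved with Trpv2 between the stages. Of 23 probe sets of 20 macrophage genes, 12 were called higher and 0 lower in adult samples, and 17 were above background on all adult arrays against 4 on all embryonic arrays. Their mean ranged from 6.34 to 7.98 over adult and from 3.29 to 5.54 over embryonic arrays. Adgre1, an adhesion receptor of mature macrophages, was at 9.62 ± 1.09 in adult and 2.93 ± 1.53 in embryonic samples (SD, n = 5 each; adjusted p = 0.0022), and Lyz2, the macrophage lysozyme, at 12.27 ± 0.45 in adult and 5.58 ± 1.84 in embryonic samples (adjusted p = 0.0022). Cd68, a lysosomal glycoprotein of macrophages, was at 9.43 ± 0.53 and 5.19 ± 2.26 in adult and embryonic samples (adjusted p = 0.066).

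Among the adult arrays, the mean of the macrophage markers was highest where Trpv2 was highest, but single markers were divided. Their mean was 7.89 and 7.98 on adult replicates 1 and 4, against 6.34 to 7.15 on the other 3 adult arrays. Of the 23 macrophage probe sets, 13 had these same 2 arrays as their highest adult ones, Lyz2 among them at 12.79 and 12.59. The other 10 did not, Cd68 among them. Cd163, a scavenger receptor of resident macrophages, picked here after its values were seen, was one of the 13. It was at 7.46 and 6.82 on adult replicates 1 and 4, against 1.82 to 2.63 on the other adult arrays and 1.88 to 2.22 on the embryonic arrays. Adgre1 was one of the 10, with its highest value, 10.85, on adult replicate 3, where Trpv2 had its lowest adult value, 4.68. In the embryonic stage, replicate 1 had the highest macrophage mean, 5.54, and a Trpv2 value of 4.10, below 3 of the other 4. The part of macrophage RNA in the Trpv2 difference was not tested. The Schwann cell mean was 4.41 and 4.56 on adult replicates 1 and 4, below the 4.65 to 5.61 of the other 3 adult arrays. The sensory neuron mean was lower there too, at 4.32 and 4.12 against 4.54 to 4.85. Satellite glia and fibroblast means were highest of the adult arrays on replicate 4, at 5.04 and 6.24, but were 4.04 and 3.11 on replicate 1. The part of these cell types was not tested either.

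**Figure D2:**
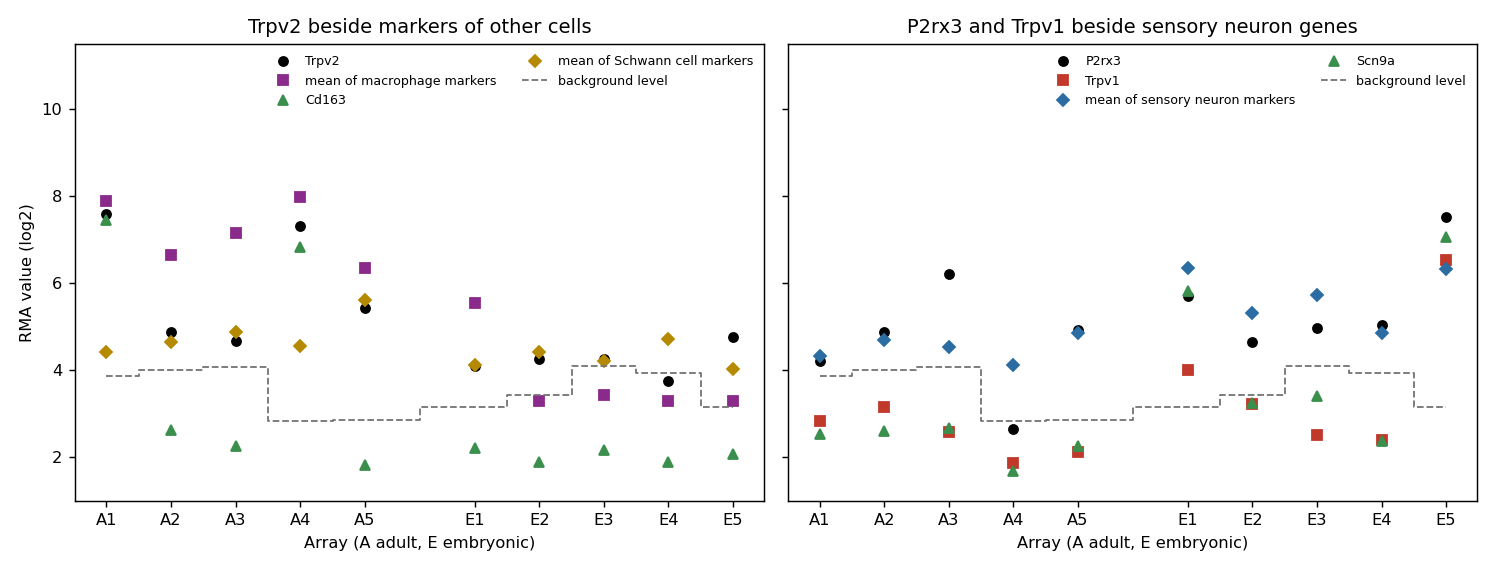
RMA values (log2) on each adult (A1 to A5) and embryonic (E1 to E5) array, on the left for Trpv2, the mean of 23 macrophage probe sets, Cd163 and the mean of 14 Schwann cell probe sets, and on the right for P2rx3 (1368667_at), Trpv1 (1370675_at), the mean of 34 sensory neuron probe sets and Scn9a. Trpv2, the macrophage mean and Cd163 are all highest on A1 and A4, and P2rx3, Trpv1 and Scn9a are all highest on E5. The dashed line is the background level of each array.

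The genes whose values over the 10 arrays followed Trpv2 most closely were Cd55, a regulator of complement (Pearson r = 0.964), Stim1, the calcium sensor of the endoplasmic reticulum (r = 0.959), and Eme2, a subunit of a DNA repair nuclease (r = 0.955). Cd55 was at 7.41 and 6.77 on adult replicates 1 and 4 and between 2.46 and 5.09 on all other arrays. Eme2 was above background on only 2 of the 10. These correlations are descriptive, since each was picked as the highest over the whole array and all arrays share their differences of spread and stage.

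Trpm8, the receptor of cold and menthol, had 1 probe set, which was above background on 1 of 10 arrays. It was at 3.86, 3.14, 4.61, 1.94 and 2.02 on adult replicates 1 to 5, of which replicate 3 stood 0.54 above background. On embryonic replicates 1 to 5 it was at 2.08, 3.02, 2.91, 3.89 and 2.02, all below. The lowest values, near 2, came from the 4 arrays of wide spread in both stages. The means were 3.11 ± 1.16 in adult and 2.78 ± 0.77 in embryonic samples (SD, n = 5 each), with a difference of 0.33 and a 95% confidence interval from -0.92 to 1.58 (limma adjusted p = 0.95).

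P2rx3 is the ATP-gated channel subunit of small pain-sensing neurons, and forms channels alone or together with P2rx2. Its probe set 1368667_at was at 4.20, 4.87, 6.20, 2.64 and 4.93 on adult replicates 1 to 5. On embryonic replicates 1 to 5 it was at 5.71, 4.64, 4.97, 5.03 and 7.52. All embryonic arrays and 4 of 5 adult arrays were above background, and adult replicate 4 lay 0.19 below it. By this probe set P2rx3 was thus measurable in samples of both stages, highest on embryonic replicate 5 and next highest on adult replicate 3.

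The stage means of this P2rx3 probe set were 4.57 ± 1.30 in adult and 5.57 ± 1.15 in embryonic samples (SD, n = 5 each). The difference was -1.01, with a 95% confidence interval from -2.54 to 0.53 and a limma adjusted p of 0.75 (exact permutation p = 0.25 before adjustment). The interval holds no change as well as a level several-fold lower in adult samples. The difference depended on which arrays were set against each other. Among the wide arrays the adult mean was 3.78 and the embryonic mean 6.61, while among the narrow arrays they were 5.09 and 4.88. Without adult replicate 4 the difference was -0.52, and without embryonic replicate 5 it was also -0.52.

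The second P2rx3 probe set, 1388077_a_at, was above background only on embryonic replicate 5, at 3.44, the same array on which the first was highest. It ranged from 1.80 to 2.46 on adult arrays and from 1.69 to 2.68 on the other embryonic arrays. The probe sets of P2rx3 therefore disagree on the other arrays where 1368667_at was above background. Genes that followed 1368667_at most closely over the 10 arrays were C12h12orf76 (r = 0.967), the actin nucleator Spire1 (r = 0.954) and the transcription factor Tshz3 (r = 0.909), again as a description of these arrays. P2rx3 and Trpv1 were also each highest on embryonic replicate 5. On the other array with a Trpv1 signal, embryonic replicate 1, P2rx3 was second highest of its stage.

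P2rx2, the partner subunit of P2rx3, was below background on all 10 arrays with each of its 3 probe sets. Values of 1369474_a_at ranged from 1.59 to 2.88 on adult and from 1.64 to 2.47 on embryonic arrays. Those of 1369475_x_at, a type of probe set that can bind similar sequences, ranged from 2.08 to 2.64 on adult and from 2.03 to 2.53 on embryonic arrays. Probe set 1387578_a_at was at 3.13 on adult replicate 3 and otherwise between 2.07 and 2.14 on adult and 1.97 and 2.39 on embryonic arrays. No fold is given for P2rx2, since a level at background sets only an upper limit in each stage.

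The acid-sensing channels were likewise at or near background. Asic1, the main proton sensor of central neurons, which sensory neurons also express, had 4 probe sets. Probe set 1371045_at was at 2.81, 2.23, 2.83, 2.53 and 2.60 on adult replicates 1 to 5 and at 3.45, 2.89, 3.23, 2.62 and 2.93 on embryonic replicates 1 to 5. Only embryonic replicate 1 was above background, by 0.29. The means were 2.60 ± 0.25 in adult and 3.02 ± 0.32 in embryonic samples (SD, n = 5 each), a difference of -0.42 with a 95% confidence interval from -0.95 to 0.10. The exact permutation p was 0.040 before adjustment and limma's adjusted p was 0.65.

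Probe set 1392135_at of Asic1 was above background on embryonic replicate 1 as well, by 0.08, and ranged from 2.21 to 3.44 on adult and from 2.66 to 3.24 on embryonic arrays. The other 2 Asic1 probe sets, 1387555_at and 1388078_a_at, were below background on all arrays, at 1.78 to 2.85 on adult and 1.84 to 2.86 on embryonic arrays. The confidence interval of each Asic1 probe set included 0, and with at most 1 of 10 arrays above background no common direction is read from their differences.

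Asic2, a subunit that joins other ASICs, was below background with 1368465_at (1.65 to 2.33 on adult and 1.70 to 3.11 on embryonic arrays) and with 1371140_a_at (1.93 to 3.22 on adult and 2.00 to 3.40 on embryonic arrays). Asic3, the acid sensor most tied to sensory neurons of muscle and heart, was at 2.59, 2.14, 2.23, 1.70 and 2.13 on adult replicates 1 to 5. On embryonic replicates 1 to 5 it was at 2.30, 2.02, 2.28, 1.85 and 2.29. The 2 sets of Asic3 values covered nearly the same range, with a difference of 0.01 and a 95% confidence interval from -0.50 to 0.52, and neither stage was above background.

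**Figure D3:**
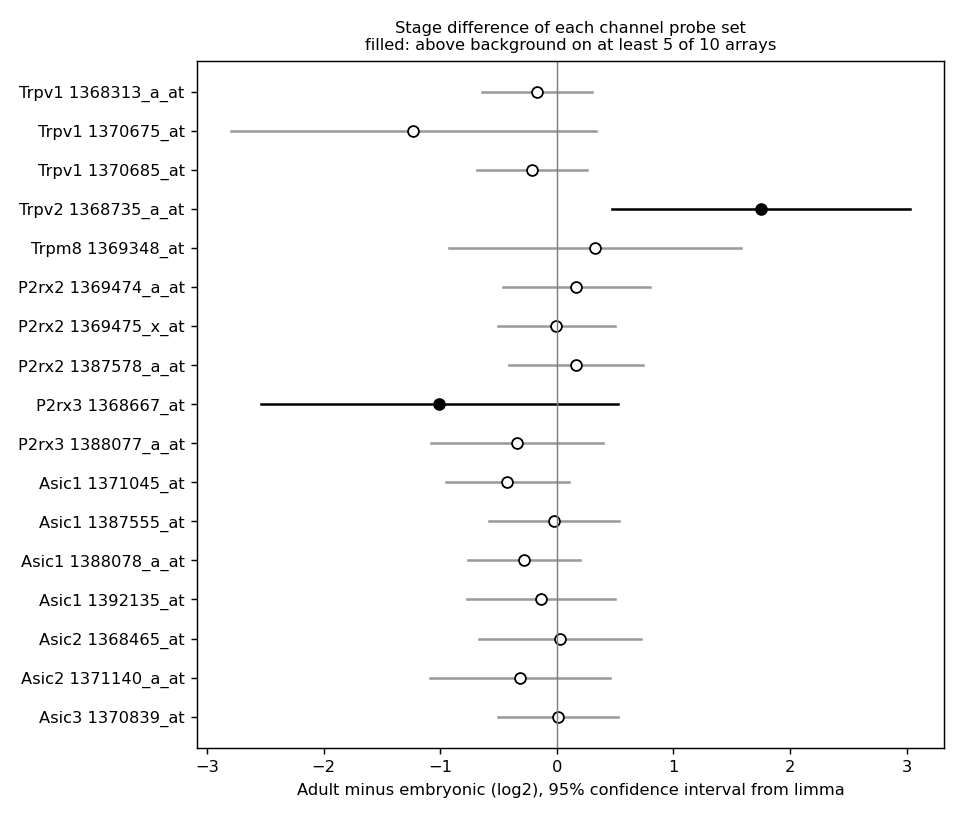
Adult minus embryonic difference (log2) of each of the 17 probe sets with its 95% confidence interval from limma (n = 5 arrays per stage), filled where the probe set was above background on at least 5 of 10 arrays. The interval of Trpv2, from 0.48 to 3.03, lies above 0 before adjustment for multiple tests, and all others include 0.

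The intervals show what these data could hold. For 11 of the 17 probe sets the whole 95% confidence interval lay between -1 and 1 on the log2 scale, but RMA compresses differences of weak probe sets and 9 of these 11 probe sets were never above background, so a narrow interval there does not show that the messenger RNA was equally abundant. For the 2 channels measured on most arrays the intervals were wide, from 0.48 to 3.03 for Trpv2 and from -2.54 to 0.53 for P2rx3.

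Other members of the same channel families were examined from lists of related genes. Of 20 probe sets of 16 other TRP genes 0 passed limma's adjusted threshold and 1 had an unadjusted p under 0.05, with a median difference of 0.01. That one belonged to Trpm7, a broadly expressed channel with a kinase domain, which ranged from 4.34 to 7.36 on adult and from 1.83 to 5.22 on embryonic arrays. Its difference was 1.83 ± 0.77 (SE; adjusted p = 0.44), and its other probe set differed by 0.56. Trpc6, a receptor-operated calcium channel, was above background on 1 adult array, and its values averaged 2.68 ± 0.91 in adult and 1.93 ± 0.35 in embryonic samples (SD, n = 5 each; adjusted p = 0.65).

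Of 15 probe sets of 12 other P2X and P2Y receptor genes 0 passed by limma and 2 had an unadjusted p under 0.05, both higher in adult samples, with a median difference of 0.27. P2ry6, a UDP receptor found on macrophages and microglia, was at 4.68, 4.97, 7.52, 6.29 and 4.97 on adult and 4.18, 3.36, 4.30, 3.77 and 3.51 on embryonic replicates 1 to 5. Every adult value was above every embryonic one, and the difference was 1.86 ± 0.52 (SE; adjusted p = 0.17; exact permutation p = 0.0079, the smallest that 252 labellings allow). P2ry10, a receptor of lymphoid cells, was above background on 3 adult and 0 embryonic arrays. It averaged 4.12 ± 2.37 in adult and 2.00 ± 0.098 in embryonic samples (SD, n = 5 each; limma adjusted p = 0.49). Taken against the background level of the embryonic arrays, the adult mean was at least 1.47-fold higher. This bound also compares means only, and it rests on the 7.99 of adult replicate 3. Without that array the adult mean was 3.15, below the embryonic background mean of 3.56, and no bound was left. The mean of the macrophage markers was also higher in adult samples. Among the adult arrays, though, both receptors were highest on replicate 3. The macrophage mean was 7.15 there, against 7.89 and 7.98 on replicates 1 and 4. The part of macrophage RNA in these differences was not tested.

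The other acid-sensing and epithelial sodium channels, 7 probe sets of 5 genes, had 0 calls by limma, 0 with an unadjusted p under 0.05 and a median difference of -0.01. The 2 probe sets with the smallest p, of Scnn1g, a subunit of the epithelial sodium channel, and of Asic5, were below background on all arrays, with adult means of 2.87 and 2.36 and embryonic means of 2.58 and 2.07.

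Proteins that sensitise or scaffold these channels gave 28 probe sets of 24 genes. Limma called 0 of them, and 7 had an unadjusted p under 0.05, of which 1 was higher and 6 lower in adult samples. The median difference was -0.38. Plcg1, a phospholipase whose action on membrane lipids affects Trpv1, was at 5.39, 6.84, 6.53, 7.04 and 5.80 on adult and 7.89, 8.39, 8.50, 6.98 and 8.03 on embryonic replicates 1 to 5. The stages overlapped only through adult replicate 4 and embryonic replicate 4, and the difference was -1.64 ± 0.40 (SE; adjusted p = 0.11). Pick1, a PDZ protein that binds Asic1 and Asic2, was at 2.67, 4.53, 2.69, 5.03 and 5.16 on adult and 5.65, 5.73, 5.53, 7.48 and 6.47 on embryonic replicates 1 to 5, without overlap, and differed by -2.15 ± 0.60 (SE; adjusted p = 0.17).

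Among these partners Pirt, a membrane protein that binds Trpv1 and Trpm8 and was named after its values were seen, was at 3.35, 3.59, 3.90, 2.85 and 3.77 on adult replicates 1 to 5. On embryonic replicates 1 to 5 it was at 8.77, 4.82, 6.87, 3.27 and 6.98. The difference was -2.65 (adjusted p = 0.25), and it passed the threshold only when embryonic replicate 4 was left out (-3.37, adjusted p = 0.048).

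The sensory neuron genes named for comparison set the scale of what could be called. Prph was at 7.17 ± 1.59 in adult and 11.49 ± 0.82 in embryonic samples (SD, n = 5 each; adjusted p = 0.020). Neuronal tubulin Tubb3 was at 4.54 ± 1.01 in adult and 7.72 ± 0.69 in embryonic samples with 1371618_s_at (adjusted p = 0.016), and below background on all arrays with its other probe set. Scn10a was at 5.40 ± 0.91 in adult and 6.77 ± 1.27 in embryonic samples (adjusted p = 0.52). Calca, which encodes the pain peptide CGRP, was at 8.17 ± 1.39 in adult and 7.99 ± 2.11 in embryonic samples with 1370775_a_at (adjusted p = 0.99). Its probe sets 1369116_a_at and 1369117_at differed by -0.20 and -0.53 (limma adjusted p = 0.90 and 0.50). The first was above background on 3 adult and 3 embryonic arrays, the second on 0 adult and 1 embryonic array. Of the 34 sensory neuron probe sets, 5 of them, of 4 genes, were called lower and 0 higher in adult samples, with a median difference of -0.85.

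**Figure D4:**
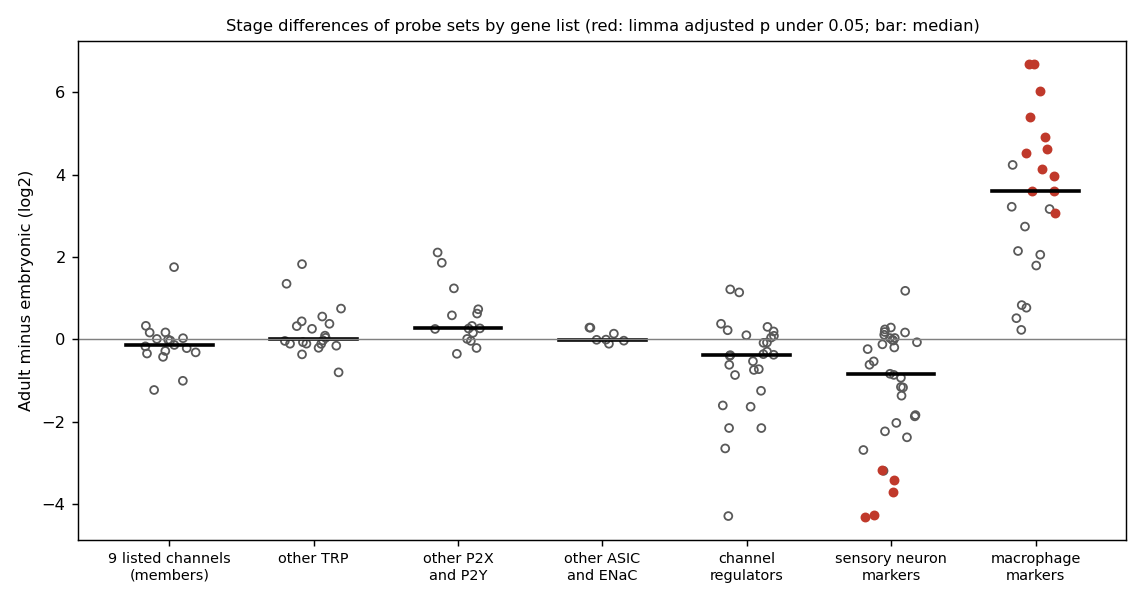
Adult minus embryonic differences (log2) of single probe sets by gene list, red where limma's adjusted p was under 0.05, with the median of each list as a bar. The 17 channel probe sets and the 3 lists of related channels hold no red point, while 5 sensory neuron probe sets lie below 0 and 12 macrophage probe sets above 0 in red.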

How the data were processed

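Total RNA was labelled with biotin and hybridised to Affymetrix rat expression arrays, per the labels. The authors deposited log2 values. The submitters' processing notes name RMA, which in its usual form subtracts background, equalises the arrays' distributions and summarises each probe set, and give no version or options. The deposited arrays still differed in spread (SD 1.49 to 2.07), and whether all 10 were processed together is not stated. The base of the logarithm was taken from the range of the values. RMA compresses differences of weak probe sets. No detection calls were used.

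Of 31099 probe sets, 57 controls were left out. Each of the other 31042 was fitted by stage with limma 3.58.1 under R 4.3.3, giving adult minus embryonic differences and two-sided moderated tests, with Benjamini-Hochberg adjustment and a threshold of 0.05. No filter or pseudocount was used. The background level of an array was a 95th percentile, over 105 probe sets of 93 genes known from other tissues. A bound on a fold took the higher of background and measured value on each array of the dim stage. Probe sets of a gene were kept apart. Simulated calls held 7 false ones among 133. Figures used Python 3.11.15 and matplotlib 3.10.9.

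The members and gene lists were chosen with earlier results of these data known. Named genes were all members, called genes or the 2 with the smallest p of each related list, fixed markers of neurons and macrophages and the 3 genes closest in pattern to each member above background on at least 5 arrays. Alternatives were other scalings, a filter, variance models, array weights, blocks and leaving out arrays. Replicate numbers are shared between stages, but same-numbered arrays correlated from -0.12 to 0.28 in their deviations from the stage means, over 0.1 in 2 of 5 pairs, so the numbers were not treated as pairing.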

Additional observations from a re-analysis of the deposited data

Results flagged for a closer look

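In 34 groups of 5 arrays, 1 per probe set and stage, 4 had an array far from the other 4 by Dixon's gap test, where chance gives about 1 in 20. Trpv1 1370685_at was at 2.11 on adult replicate 2, against 1.60 to 1.70 on the other adult arrays. P2rx2 1387578_a_at was at 3.13 on adult replicate 3, against 2.07 to 2.14. Asic1 1392135_at was at 2.66 on embryonic replicate 2, against 3.07 to 3.24 on the other embryonic arrays. Asic2 1368465_at was at 3.11 on embryonic replicate 4, against 1.70 to 2.03. All 4 values were below background. The high Trpv1 (6.54) and P2rx3 (7.52) values of embryonic replicate 5 did not reach the test's critical value of 0.710.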

How the results depend on the processing

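None of the 17 channel probe sets was called under any of 20 alternatives, the replicate block included (0 called). With limma's unadjusted p under 0.05 there were 0 among the narrow arrays, 2 among the wide arrays and 1 under each other alternative. The filter on weak probe sets kept 2 of the 17. Trpv2 kept a higher adult mean in all 20, from 1.35 to 2.08, with adjusted p from 0.14 (cyclic loess) to 0.58 (narrow arrays only). Of the other 16, 6 kept their sign and 10 changed it under at least 1, Trpv1 1370675_at and P2rx3 1368667_at only among the narrow arrays (0.14 and 0.21, against -3.28 and -2.83 among the wide arrays). Causes were not tested. All probe sets called numbered 258, with 191 under the replicate block, 431 after the filter on weak probe sets, which tests fewer, 401 with spread as a block, 0 among the 4 wide arrays (limma, with 4657 at an unadjusted p under 0.05), and 150 to 339 with 1 array left out (165 without adult replicate 1, 150 without adult replicate 4, 162 without embryonic replicate 3 and 153 without embryonic replicate 5). Related channels and regulators had 0 calls, with 1 (Snapin) among the narrow arrays and 0 to 2 with 1 array left out (Snapin without adult replicate 5, and Fgf13 and Pirt without embryonic replicate 4). Channels above background on all arrays of a stage numbered 1 to 2 in adult and 1 to 2 in embryonic samples with 1 array left out, where P2rx3 joined without adult replicate 4 and Trpv2 without embryonic replicate 4, and 2 in embryonic samples at the 90th percentile.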
